A study of Mus musculus with 2 samples.

Results

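The 37 genes described here are mouse genes of glycolysis and of the response to low oxygen, followed through the CD45+ leukocytes of MC38 tumours. They were taken by gene symbol among 33696 mouse features counted in the library. Each symbol was found, and 38 features carry one of them because Aldoa is listed at 2 identifiers; the second Aldoa feature reached at most 0.314 UMIs per 1000000 in any cell type and was left out. By position in the pathway, 18 were called glycolysis genes (Slc2a1 to Slc16a3, the glucose transporters, the enzymes down to lactate, and the lactate exporter). The other 19 (Pdk1 to Ero1a) were called hypoxia response genes.

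MC38, a mouse colon carcinoma line, was implanted subcutaneously in mice with human Fcγ receptors, and CD45+ cells were sorted from the tumours for 3′ single-cell RNA sequencing. All mice of all groups carried the human receptor genotype (hFcgR, given in the labels also as human FCR). The treatments were in-house antibodies to mouse GITR, a T cell costimulatory molecule, built on human IgG1 with different Fc parts and injected at 100 µg per mouse, 2 times at an interval of 3 days; PBS was the control, and cells were taken 4 days after treatment. The labels call the treatments Untreated, N297A, GITR/Syn GA-aFuc and GA-aFuc, and N297A is known as an IgG1 substitution that removes the Fc glycan and weakens binding to Fcγ receptors. Untreated is read here as the PBS control. The library analysed held 2 GA-aFuc mice, 2 GITR/Syn GA-aFuc mice, 1 N297A mouse and 1 Untreated mouse. For short, the 4 mice whose label holds GA-aFuc are called Fc-enhanced; the labels do not state how these antibodies bind. This group joins 2 treatments, whose labels differ in the part GITR/Syn, which the labels do not expand. Values over mice are listed in the order GA-aFuc 1, GA-aFuc 2, GITR/Syn GA-aFuc 1, GITR/Syn GA-aFuc 2, N297A, Untreated.

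Glycolysis splits glucose to pyruvate and, through lactate dehydrogenase, to lactate, and it needs no oxygen. When oxygen falls, prolyl hydroxylases (Egln1, Egln3) stop marking HIF-1α, the product of Hif1a, for degradation. HIF-1 then binds short DNA sites, often with the core ACGTG, near its target genes, among them most glycolytic enzymes. Activated macrophages and effector T cells also raise glycolysis with oxygen present, and solid tumours hold poorly perfused zones, so the same genes can be high for different reasons in leukocytes of a tumour.

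The letters of the core site are printed here in 50-base stretches upstream of 10 members. HIF-1 binding was not measured. The sequences are from the RefSeq promoter table (mouse build GRCm38.p6), read 5′ to 3′ on the gene's strand, with ACGTG or its reverse complement CACGT in capitals. The first are the genes of glucose uptake, phosphorylation, ATP production and lactate production.
Slc2a1, glucose transporter GLUT1, chr4:119108686-119108735, + strand: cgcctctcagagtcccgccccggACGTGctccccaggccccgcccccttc
Hk2, hexokinase 2, chr6:82774480-82774529, - strand: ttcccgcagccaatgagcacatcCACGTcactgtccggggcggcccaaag
Pgk1, phosphoglycerate kinase 1, chrX:106186937-106186986, + strand: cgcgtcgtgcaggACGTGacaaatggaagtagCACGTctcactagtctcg
Ldha, lactate dehydrogenase A, chr7:46845740-46845789, + strand: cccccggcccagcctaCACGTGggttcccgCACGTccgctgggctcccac

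The hypoxia response members shown return in the comparisons below, and all members printed were picked among those with a match. Egln1 and Hif1a, which return too, are not shown. Adm also returns but held no match.
Bnip3, a mitophagy receptor, chr7:138909587-138909636, - strand: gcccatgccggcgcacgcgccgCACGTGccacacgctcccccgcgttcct
Hilpda, a lipid droplet protein, chr6:29272560-29272609, + strand: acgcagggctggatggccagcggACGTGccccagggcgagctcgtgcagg
Ero1a, an oxidase of the endoplasmic reticulum, chr14:45318609-45318658, - strand: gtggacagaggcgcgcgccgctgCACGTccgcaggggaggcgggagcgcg
Egln3, an oxygen-sensing prolyl hydroxylase, chr12:54204075-54204124, - strand: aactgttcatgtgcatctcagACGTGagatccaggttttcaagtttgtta
Ddit4, an inhibitor of mTORC1 signalling, chr10:59951931-59951980, - strand: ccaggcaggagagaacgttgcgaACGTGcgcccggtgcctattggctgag
Ankrd37, an ankyrin repeat protein, chr8:45999851-45999900, - strand: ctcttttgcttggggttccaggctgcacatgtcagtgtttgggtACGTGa

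Among the 34 members with a promoter in the table (Bhlhe40, Ndrg1 and Slc2a3 are not in it), 22 (64.7%) held ACGTG on either strand within the 250 bases upstream of a start, with overlapping matches counted once. The share was 58.8% for the glycolysis genes (10 of 17) and 70.6% for the hypoxia response genes (12 of 17). Over the 26991 other genes it was 18.4%. The members' windows were also richer in G and C (median 64% against 52.4%) and in CpG (median 17 against 6 per window), and among the 5198 other genes whose CpG count lay between the members' quartiles, 13 and 22, the share was 27.1%. Counted by window, since many genes have several starts, it was 48.1% of 54 member windows and 16.5% of 32797 others. Ldha had the most matches, 3 in 1 window, and Ankrd37, Hif1a, Hk2, Pgk1 and Slc16a3 had 2. A match is a run of letters, not a measured binding site. Only ACGTG and CACGT were searched, so other forms of the site are not counted.

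The authors' annotation gives 19210 cells of both libraries a treatment, 1 of 10 cell types and 1 of 58 clusters; 10476 of them are in the library analysed, 1540 to 1925 per mouse, with 1.72e+07 to 2.58e+07 UMIs per mouse and a median of 12075 UMIs per cell. The annotations of both libraries share 34 barcodes. Macrophages (5725 cells) and monocytes (3119) made up most cells, followed by 604 NK cells, 542 CD8 T cells and 268 type 2 conventional dendritic cells (cDC2); the remaining types had 64 cells or fewer. Levels are UMIs per 1000000 UMIs of the cells (CPM), summed per mouse and type. They are read within a gene only, since the assay counts 3′ ends and no value is per length. Macrophage RNA was measured outside macrophages too: C1qa, a complement gene that defines them, stood at 5062 CPM in macrophages and at 139.8 in CD8 T cells and 105.8 in NK cells. It was 600.1 in the CD4 T cells and 2266 in the 24 regulatory T cells, so levels in those 2 small types are given only in passing. For bulk sums of this kind, fewer cells in a given state and less RNA per cell cannot be told apart.

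RNA of the 2 glucose transporters was highest in different cell types. Slc2a1 (GLUT1) was highest in monocytes, with a lowest, median and highest mouse of 107.3, 126.9 and 197.8 CPM. It was 49.3, 70.1 and 162.1 in macrophages and 67.3, 85.1 and 120.1 in cDC2. CD8 T cells (45.0, 50.8 and 76.3) and NK cells (41.5, 54.4 and 72.3) were lowest and overlapped each other, and macrophages overlapped both. Slc2a3 encodes GLUT3, a transporter of high affinity. It went the other way, at 49.6, 70.5 and 94.7 CPM in CD8 T cells and 12.8, 21.4 and 35.6 in NK cells, against 3.91, 4.95 and 7.58 in macrophages and 1.44, 2.74 and 4.39 in monocytes. Its mean in CD8 T cells was 23.9 times that in monocytes, the widest ratio among the members above 0 in each of these 5 types, and its CD8 range was apart from that of every other type shown.

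Hk2, the inducible hexokinase that traps glucose in the cell, marked the myeloid types. The lowest, median and highest mouse were 124.8, 153.3 and 182.8 CPM in monocytes, 94.1, 126.2 and 136.9 in cDC2 and 86.2, 106.0 and 163.6 in macrophages. NK cells (31.1, 39.4 and 46.0) and CD8 T cells (29.4, 39 and 48.1) lay below all of these and did not differ from each other beyond their spread. Hk1, the constitutive hexokinase, was highest in CD8 T cells, at a mean of 74.8 against 39.3 in macrophages. Of the phosphofructokinase genes, Pfkp stood out in cDC2 (218.5, 344.6 and 461.6 CPM), above CD8 T cells (181.6, 191.4 and 216.9) and all other types. Pfkfb3, whose product makes the allosteric activator of phosphofructokinase, was about equal in macrophages (median 100.4) and monocytes (100.7) and lowest in NK cells (27.0).

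The enzymes from the aldolase step down varied by 1.61- to 2.07-fold between the highest and lowest type for Aldoa, Tpi1, Gapdh, Pgk1, Pgam1, Eno1, Pkm and Ldha. Enzymes of earlier steps varied both less and more, from 1.37-fold for Gpi1 to 3.94-fold for Hk2. Ldha, which makes lactate from pyruvate, was 816.9, 932.4 and 966.9 CPM in CD8 T cells and 555.6, 778.0 and 840.1 in macrophages, and in the other types its ranges overlapped those of macrophages. Slc16a3, the lactate exporter MCT4, was highest in monocytes (107.4, 130.2 and 209.4), where its lowest mouse was just above the highest macrophage value of 107.1, and lowest in NK cells (15.9, 30.5 and 38.9).

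Among the regulators, Hif1a RNA was highest in CD8 T cells, with a lowest, median and highest mouse of 380.6, 429.7 and 509.6 CPM. Monocytes followed at 214.0, 329.8 and 461.2, then cDC2 at 174.5, 207.4 and 298.3. NK cells (108.8, 153.2 and 194.0) and macrophages (92.9, 127.9 and 176.7) were lowest, with overlapping ranges. Hif1a and the target gene Bnip3 did not rank the types alike. Macrophages, lowest in Hif1a, were highest or close to highest in Bnip3 (61.4, 113.4 and 222.4, against 76.4, 105.0 and 222.2 in monocytes and 26.8, 35.3 and 38.0 in NK cells). The Bnip3 mean was 77.9 in CD8 T cells and 120.5 in macrophages, with overlapping mice. Within macrophages it was uneven, with a median of 65.3 over the author clusters and 711.0 in cluster 9. Other members differed from Bnip3: CD8 T cells, highest in Hif1a, also had the highest mean of Pgk1, Ldha, Mif and Fam162a, among others. Bhlhe40, a transcriptional repressor of lymphocytes and macrophages, was 281.7, 309.8 and 375.1 in CD8 T cells, 240.2, 296.4 and 378.9 in cDC2 and 233.3, 274.1 and 318.4 in NK cells, but 47.1, 70.8 and 100.4 in monocytes and 19.8, 26.4 and 90.9 in macrophages, an 8.93-fold ratio of the extreme means. Mxi1, a MYC antagonist, was 133.8, 158.4 and 198.7 in monocytes and 16.2, 25 and 43.9 in NK cells.

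Hilpda and Ddit4 were lymphocyte-high. Hilpda was 110.7, 231.8 and 316.0 CPM in CD8 T cells and 129.8, 215.4 and 243.6 in NK cells, against 35.2, 61.4 and 195.0 in monocytes and 21.8, 44.5 and 202.8 in macrophages. The highest value of macrophages and of monocytes, which overlaps the lymphocytes, is GA-aFuc 2 in both. Ddit4 was 36.6, 53.4 and 87.8 in NK cells and 38.1, 48.9 and 75.5 in CD8 T cells, against 8.76, 12.9 and 30.2 in macrophages. Adm, a vasodilator peptide gene, and Ak4, an adenylate kinase of mitochondria, were scarce, with a highest mean of 2.26 and 3.81 CPM, both in macrophages, and each was listed at 0 in all mice of another type.

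**Figure D1:**
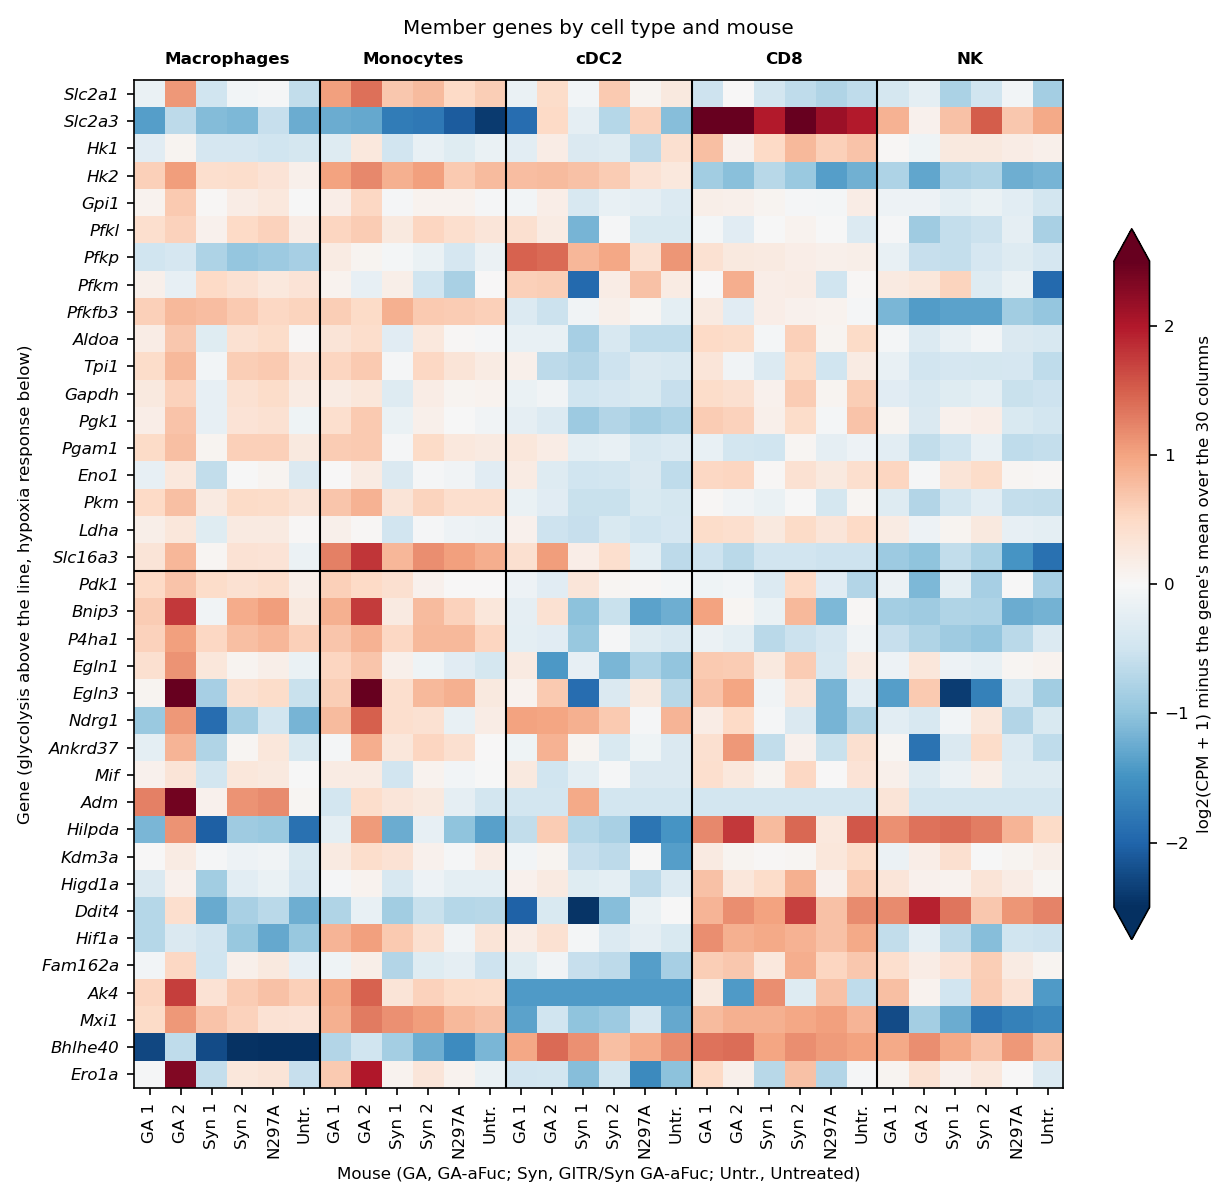
Level of each of the 37 members per mouse (columns) in 5 cell types, as log2(CPM + 1) minus the gene's mean over the 30 columns; colours end at the arrowed limits of the scale. Slc2a3 is high in CD8 T cells, Bhlhe40 is low in macrophages, and the GA-aFuc 2 column of the macrophages is high for Egln3, Hilpda, Adm and Ero1a.

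Over the 5 types, 14 of the 37 members had their highest mean in CD8 T cells, 10 in monocytes, 9 in macrophages, 3 in cDC2 and 1 (Ddit4) in NK cells. The module score, the mean over members of log2(CPM + 1), was 6.51 ± 0.18 (SD, n = 6 mice) in CD8 T cells, 6.46 ± 0.27 in monocytes, 6.31 ± 0.38 in macrophages, 6.03 ± 0.12 in NK cells and 6.01 ± 0.20 in cDC2, so CD8 T cells, monocytes and macrophages were within their spread. The members held 0.900%, 0.826%, 0.817%, 0.627% and 0.619% of the UMIs of these types. Because the types were annotated from the expression of the same cells, types are described and not tested.

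Members whose 6 mice in 1 type lay entirely above or below the 6 mice of another were also counted. This covers 34 members at a mean of at least 5 CPM in either type of each pair. Of these, 9 were above NK cells in CD8 T cells (Slc2a3, Gpi1, Pfkp, Pfkfb3, Aldoa, Gapdh, Ldha, Hif1a and Mxi1; 6.93% of all features kept) and 0 were below (5.07% of all). CD8 T cells against macrophages gave 6 above (Slc2a3, Hk1, Pfkp, Ddit4, Hif1a and Bhlhe40; 22.6% of all) and 7 below (Hk2, Pfkl, Pfkfb3, Pgam1, Pkm, Slc16a3 and the collagen hydroxylase P4ha1; 23.6% of all), shares near the background in both directions. Monocytes were above macrophages in 3 (Pfkp, Slc16a3 and Hif1a; 9.11% of all) and below in 0 (21.1% of all). Type 2 dendritic cells were above macrophages in 2 (Pfkp and Bhlhe40; 9.48% of all) and below in 5 (Pfkfb3, Pgk1, Pkm, P4ha1 and Mxi1; 19.4% of all). For monocytes and for type 2 dendritic cells against macrophages, the counts were near or below the shares over all features.

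In the small types, given as pooled cells with a 95% exact Poisson interval that covers counting error only, the 55 mregDC cells (dendritic cells of a mature, migratory state) had 581.2 CPM of Bhlhe40 (520.3 to 647.4), 295.0 of Pfkfb3 (252.1 to 343.1) and 242.3 of Ndrg1 (203.6 to 286.3), but 14.0 of Slc2a1 (6.07 to 27.7). Ndrg1 encodes a stress-response protein of differentiating cells. The 64 CD4 T cells had 809.6 CPM of Hif1a (732.0 to 893.2).

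Within macrophages, most members were high together in a small part of the cells. Of 50 author clusters with at least 50 cells, macrophage cluster 9 (333 cells, median 9171 UMIs) had the highest module score, 8.10, and its members made up 2.31% of its UMIs. Macrophage cluster 39 (142 cells) followed at 7.73, then monocyte clusters 8 (306 cells, 7.28) and 0 (447 cells, 7.06) and macrophage cluster 11 (274 cells, 7.04). Of the 22 macrophage clusters, 24 members were highest in cluster 9 and 10 in cluster 39; Hif1a was highest in cluster 6, Pfkm, the muscle phosphofructokinase, in cluster 30 and Slc2a3 in cluster 45. Cluster 9 also had the fewest UMIs per cell of these clusters, beside medians of 11507 to 21785 in the others. Its median mitochondrial share was lowest too, 1.06% against 1.36% to 2.37%. The part of depth was not tested. Of the 15 monocyte clusters, cluster 8 was highest for 24 members. Clusters were made from the same values, so these are descriptions.

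**Figure D2:**
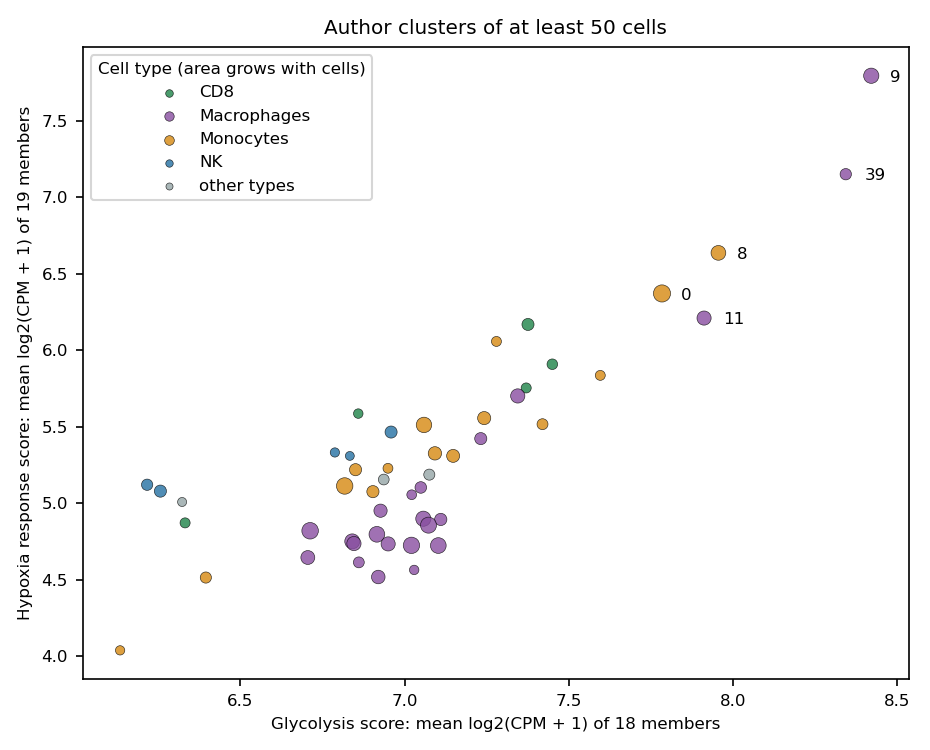
Glycolysis score against hypoxia response score, each a mean of log2(CPM + 1) over the sub-group's members, for the 50 author clusters with at least 50 cells; 1 point is 1 cluster, coloured by cell type, with area growing with its cells. Macrophage clusters 9 and 39 and monocyte clusters 8 and 0 lie at the upper right, followed by macrophage cluster 11.

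Cluster 9 was high in each mouse. Its Slc2a1 level was 537.6, 650.6, 357.9, 457.5, 525.7 and 495.7 CPM over the 6 mice, against 52.0, 74.2, 49.1, 53.4, 48.9 and 41.5 in macrophages outside clusters 9 and 39. Hk2 was 480.2 to 656.2 in the cluster against 77.5 to 112.0 outside. Hilpda was 701.6, 993.6, 391.4, 596.9, 495.6 and 674.1 against 21.5, 71.2, 16.6, 23.7, 21.9 and 14.5, a 29.3-fold ratio of the group medians. For these 3 genes the lowest cluster 9 mouse was above the highest mouse outside.

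The hypoxia response members differed more than the enzymes. The median ratio of cluster 9 to the other macrophages was 6.18 over the 19 hypoxia response members and 2.57 over the 18 glycolysis members. Egln3 had a ratio of 20.8, Ndrg1 17.0, Ddit4 15, Ankrd37 12.1, Bhlhe40 11.6, Ero1a 11.5 and Bnip3 7.0, while Ldha had 2.2. Adm was 11.2 to 75.7 CPM in the cluster and 0.8 or less outside. Hif1a itself was higher in some mice and lower in others, with overlapping ranges. Over the 6 mice it was 108.5, 242.1, 167.8, 109.1, 109.8 and 143.7 against 139.7, 166.7, 163.7, 118.2, 92.6 and 117.6. The other 2 exceptions were Slc2a3 and Pfkm, both under 10 CPM in the other macrophages.

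The 4 clusters compared here were taken for the highest module scores of these same members. High member counts therefore follow largely from that choice and are not a test. The filter also admits members through the cluster alone, such as Adm in cluster 9. Mouse ranges were apart, with cluster 9 above, for 34 of the 36 members at a mean of at least 5 CPM in either group. Of all features, 7.37% were. For cluster 39 this held for 27 of 37 (2% of all), with median ratios of 2.38 for glycolysis and 3.58 for the hypoxia response. In monocytes, against those outside clusters 0 and 8, it held for 13 of 35 members in cluster 8 (2.89% of all) and 18 of 34 in cluster 0 (3.11% of all). Hif1a, which had no common direction over the mice in cluster 9, had a median of 479.0 CPM in monocyte cluster 8 and 261.3 outside.

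**Figure D3:**
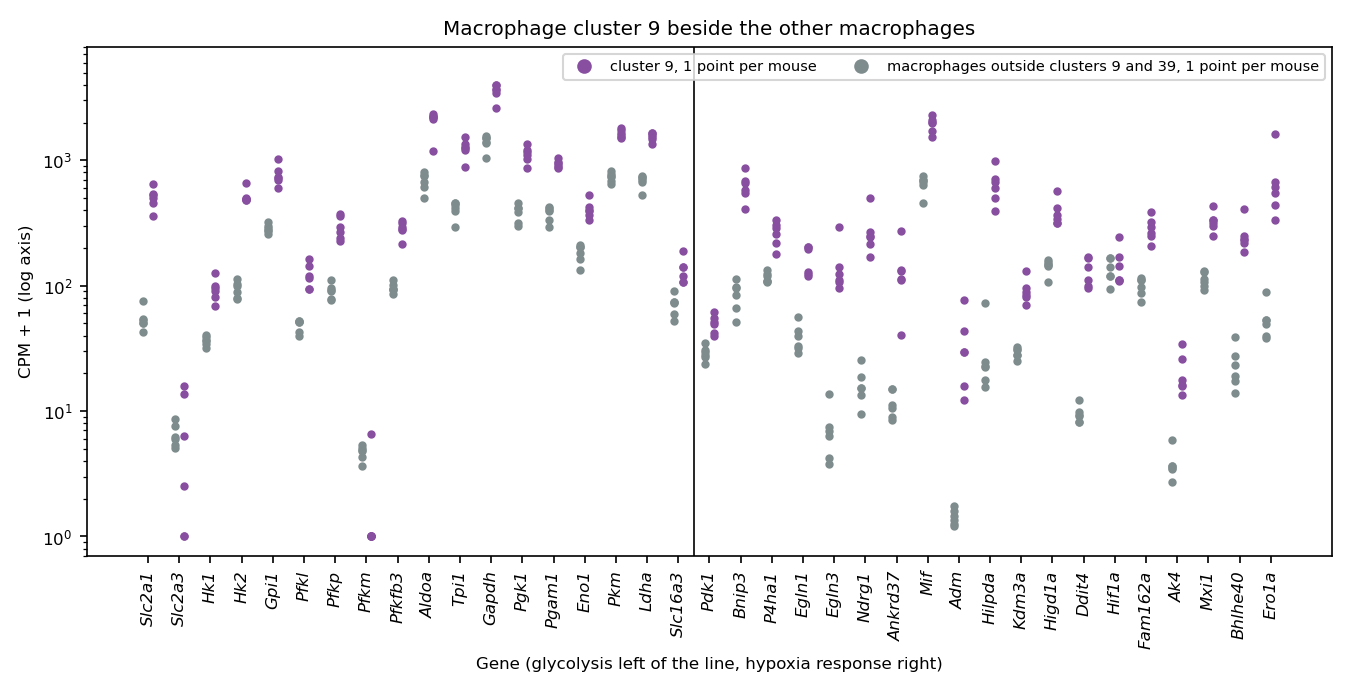
CPM + 1 (log axis) of each member in macrophage cluster 9 and in macrophages outside clusters 9 and 39, 1 point per mouse. Cluster 9 lies above for nearly all members, by most for hypoxia response genes such as Hilpda, Egln3 and Ndrg1, and overlaps for Slc2a3, Pfkm and Hif1a.

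The markers of both myeloid types differed between some of these clusters and the remaining cells. The summed level of the 5 monocyte markers (Ly6c2, Ccr2, Plac8, Chil3, Vcan) was 1241 CPM in cluster 9 and 218.6 in macrophages outside clusters 9 and 39, and that of the 6 macrophage markers was 11798 and 21562. Cluster 11 was close to the outside cells, at 245.1 for the monocyte and 21722 for the macrophage markers. In monocyte cluster 8 the monocyte markers stood at 11131 CPM, in cluster 0 at 4301 and in monocytes outside both at 4809, and the macrophage markers at 3113, 4856 and 12459. Neutrophil markers were 50.8 in cluster 9 and 39.6 outside, and 3 of the 4 epithelial or tumour markers were at 0 in cluster 9, with a sum of 0.6 CPM. The part of the monocyte markers in the members' levels was not tested.

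Across the 22 macrophage clusters the rank correlation of a member with the mean of the other members was 0.93 for Bnip3, 0.85 for Hk2, 0.53 for Hif1a and -0.36 for Slc2a3. Across the 15 monocyte clusters it was 0.99 for Bnip3, Pgk1 and Aldoa and 0.17 for Slc2a3. Clusters share a library, differ in depth and were built from these values, so the coefficients only describe which genes moved together.

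Cluster 9 was unevenly spread over the mice. It held 3.49%, 17.9%, 1.48%, 5.69%, 6.49% and 1.91% of the macrophages of the 6 mice, and GA-aFuc 2 gave 44.4% of its cells. In the annotation of the other library, whose counts were not analysed here, the share was between 3.17% and 7.98% of macrophages over 6 mice of the same treatments. The mice of that library were taken from runs of rising barcodes, without a check by hashtags. The GA-aFuc 2 mouse was therefore alone above 8% among 12 mice, and the other 2 GA-aFuc mice, at 3.49% and 6.42%, lay within the range of the N297A and Untreated mice.

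The members' response to treatment was tested with edgeR on counts summed per mouse in 5 classes (dendritic cells, which join 4 types, NK cells, CD8 T cells, monocytes and macrophages), in 6 contrasts each. With an adjusted p under 0.05 over all genes of a class, 0 members passed in all 30 class and contrast combinations. DESeq2 called 2 members in monocytes for GA-aFuc against N297A (Hif1a and Ndrg1), among 78 of all 11920 genes, and 1 (Hif1a) for Fc-enhanced against the others, among 62. It called 0 members elsewhere. With 2 residual degrees of freedom and a single N297A and Untreated mouse, these fits leave wide errors, and the values below are given with them.

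In macrophages, where the 37 members were tested among 14340 genes, GA-aFuc 2 was the highest mouse for Slc2a1, Bnip3 and Hk2. Slc2a1 was 67.7, 162.1, 53.7, 72.5, 73.9 and 49.3 CPM over the 6 mice. Bnip3 was 101.6, 222.4, 61.4, 125.2, 135.1 and 77.3. Hk2 was 118.6, 163.6, 104.6, 107.4, 100.3 and 86.2, so that its 4 Fc-enhanced mice were above both others.

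Ldha (758.2, 840.2, 555.6, 797.8, 798.4 and 701.6) and Hif1a (138.0, 176.7, 162.9, 117.3, 92.9 and 117.7) did not have all 4 Fc-enhanced mice above the others, though GA-aFuc 2 was highest in both. The 4 members with the smallest p, all for GA-aFuc against Untreated, belonged to the hypoxia response. Adm was 2.27, 6.31, 0.471, 1.98, 2.11 and 0.423 CPM, a log2 fold change of 3.23 ± 1.06 (SE; edgeR adjusted p = 0.9998). Hilpda was 41.2, 202.8, 21.8, 49.5, 47.7 and 24.8, a log2 fold change of 2.24 ± 0.89, or 0.67 without GA-aFuc 2.

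Bhlhe40 was 28.3, 90.9, 29.1, 24.6, 23.0 and 19.8, with 1.53 ± 0.58 on the log2 scale, or 0.45 without GA-aFuc 2. Egln1, the main oxygen-sensing prolyl hydroxylase, was 45.8, 76.4, 42.2, 36.5, 38.2 and 30.7, with 0.93 ± 0.32, or 0.51 without it. For all 4 the edgeR adjusted p was 0.9998.

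The background in macrophages was 0% of genes called for GA-aFuc against Untreated, 0% against N297A, 0% for GITR/Syn GA-aFuc against Untreated, 0.00697% for GITR/Syn GA-aFuc against GA-aFuc, 0% for N297A against Untreated and 0% for Fc-enhanced against the others. At an unadjusted p under 0.05, edgeR gave 10 members higher in GA-aFuc than in Untreated and 10 with a lower level in the GITR/Syn GA-aFuc mice against GA-aFuc; these contrasts share the GA-aFuc mice. It gave 1, 0, 0 and 1 higher in GA-aFuc against N297A, GITR/Syn GA-aFuc against Untreated, N297A against Untreated and Fc-enhanced against the others. Over all genes, 3.04% and 2.52% had such a p, in either direction, in the first 2 of these contrasts, and 3.23%, 1.29%, 2.07% and 3.33% in the other 4.

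The median log2 fold change of the 37 members in GA-aFuc against Untreated was 0.41 (0.30 for glycolysis, 0.76 for the hypoxia response), beside 0.01 over all genes, and 36 of 37 were above 0. Without GA-aFuc 2 the median was 0.16. Without clusters 9 and 39 it was 0.20. Without GA-aFuc 1, which leaves GA-aFuc 2 alone in its group, edgeR called 11 members and 381 of 14202 genes in all. In the macrophages of GA-aFuc 2 the monocyte marker sum was 809.6 CPM, against 141.0 to 277.6 in the other mice; its part in these differences was not tested.

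**Figure D4:**
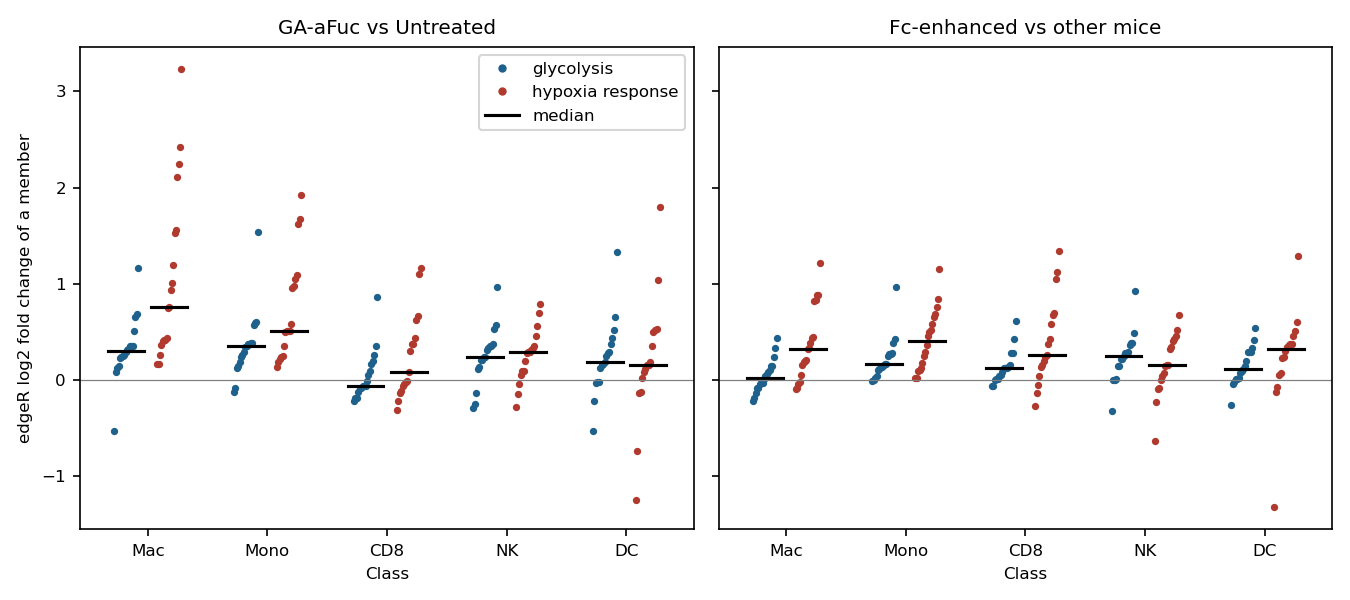
edgeR log2 fold changes of the tested members in 5 classes for GA-aFuc against Untreated and for Fc-enhanced against the other mice, 1 point per member, with the median of each sub-group as a line. The hypoxia response median of macrophages is 0.76 on the left and 0.32 on the right; no point passed the adjusted threshold.

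In monocytes, 36 members were tested among 11920 genes. Hif1a was 412.5, 461.2, 358.7, 300.9, 214.0 and 285.6 CPM, so that the 4 Fc-enhanced mice were above both others. Its log2 fold change for Fc-enhanced against the others was 0.58 ± 0.15 (edgeR adjusted p = 0.158, and 0.0342 to 0.9998 over 14 alternatives, of which 3 passed). Author cluster 0, the monocyte cluster with the highest Hif1a level (655.4 CPM), held 20.3%, 17.9%, 16.9%, 12.0%, 9.71% and 12.5% of the monocytes of the 6 mice. Without clusters 0 and 8 the log2 fold change was 0.51 (edgeR adjusted p = 0.401).

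Ndrg1 was 76.9, 125.3, 58.7, 57.8, 38.5 and 50.4, with 0.76 ± 0.19 on the log2 scale (edgeR adjusted p = 0.158), again with the 4 above both others. Egln1 was 50.6, 56.8, 37.8, 32.3, 28.3 and 25.3. For GA-aFuc against Untreated its log2 fold change was 1.06 ± 0.22 (edgeR adjusted p = 0.111), and it stayed at 0.97 without GA-aFuc 2.

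Ero1a was 105.6, 271.6, 71.3, 83.4, 71.7 and 60.1, with 1.62 ± 0.43 (edgeR adjusted p = 0.295), or 0.78 without GA-aFuc 2. Slc2a1 was 155.1, 197.8, 122.4, 131.5, 107.4 and 116.3 and Hk2 159.5, 182.8, 147.1, 160.5, 124.8 and 137.3, both with the 4 Fc-enhanced mice highest. Bnip3 was 121.8, 222.2, 76.4, 113.2, 96.8 and 78.9. Ldha, at 745.8, 700.4, 490.6, 669.4, 628.6 and 620.4, did not separate the groups.

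Among all genes of monocytes, edgeR called 0.176% for GA-aFuc against Untreated, 0.579% against N297A, 0% for GITR/Syn GA-aFuc against Untreated, 0.109% for GITR/Syn GA-aFuc against GA-aFuc, 0% for N297A against Untreated and 0.344% for Fc-enhanced against the others. At an unadjusted p under 0.05 it gave 13, 11, 0, 0, 0 and 9 members higher in these contrasts, and 13 lower in GITR/Syn GA-aFuc against GA-aFuc; of all genes 6.57%, 9.04%, 2.44%, 5.06%, 2.5% and 8.54% had such a p, in either direction. The median log2 fold change for GA-aFuc against Untreated was 0.38 (0.35 for glycolysis, 0.51 for the hypoxia response; 0.01 over all genes). It was 0.31 without GA-aFuc 2, where 1 member, Hilpda, and 83 of all 11917 genes were called, and 0.42 without clusters 0 and 8, where 0 members were. Neutrophil markers summed to 349.5 CPM in the monocytes of GA-aFuc 2 and to 47.1 to 86.5 in the others; their part was not tested.

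In CD8 T cells (34 members among 8570 genes) the member with the smallest p was Ndrg1, at 49.9, 62.3, 43.1, 33.8, 19 and 25.5 CPM. Its log2 fold change for Fc-enhanced against the others was 1.05 ± 0.28 (edgeR adjusted p = 0.920), and the 4 Fc-enhanced mice were above both others. Egln1, at 54.9, 54.5, 41.4, 54.1, 25.9 and 40.1, had the same order, with 0.68 ± 0.26.

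Bnip3 was 131.6, 66.9, 58.0, 115.0, 29.4 and 66.4, with 1.12 ± 0.36, and overlapped. Slc2a3 was 94.7, 85.6, 49.7, 86.8, 55.4 and 49.6, with 0.86 ± 0.34 for GA-aFuc against Untreated. The edgeR adjusted p of these last 3 was above 0.99. Hk2 (42.7, 37.4, 48.1, 40.6, 29.4 and 33.5) was higher in each Fc-enhanced mouse than in both others, while Hif1a (509.6, 421.8, 439.1, 415.0, 380.6 and 437.5), Ldha (944.8, 919.9, 816.9, 964.1, 847.6 and 966.9) and Slc2a1 (52.8, 76.3, 54.7, 48.5, 45.0 and 48.9) overlapped.

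Among all genes of CD8 T cells, edgeR called 0% for GA-aFuc against Untreated, 0.0117% against N297A, 0% for GITR/Syn GA-aFuc against Untreated, 0% for GITR/Syn GA-aFuc against GA-aFuc, 0% for N297A against Untreated and 0.0117% for Fc-enhanced against the others. At an unadjusted p under 0.05 it gave 2, 6, 0, 0, 0 and 5 members higher, and 2 lower in N297A against Untreated. Over all genes the shares with such a p, in either direction, were 2.45%, 4.83%, 3.87%, 3.63%, 3.38% and 3.99%.

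NK cells (34 members among 9329 genes) held the member closest to the threshold. Hilpda was 205.9, 239.7, 243.6, 225.0, 168.0 and 129.8 CPM, so that each Fc-enhanced mouse was above both others, with a log2 fold change of 0.67 ± 0.14 (edgeR adjusted p = 0.0723; 0.00343 to 0.608 over 13 alternatives, of which 2 passed). Slc16a3 was 31.6, 29.3, 38.9, 34.5, 21.1 and 15.9, with 0.92 ± 0.26 (edgeR adjusted p = 0.236). Pgk1, the first ATP-producing enzyme of glycolysis, was 387.2, 287.3, 393.6, 414.3, 282.5 and 267.4, with 0.49 ± 0.14 (edgeR adjusted p = 0.276).

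Ldha was 792.0, 633.2, 722.4, 815.0, 595.1 and 579.0, with 0.39 ± 0.13 (edgeR adjusted p = 0.338). In all 4 of these genes the 4 Fc-enhanced mice were highest. The genes were picked for the smallest p, which favours such an order, and none passed the threshold. Bnip3 (35.8, 34.8, 38.0, 37.7, 26.8 and 28.2) had the same order. Hk2 (45.7, 31.1, 44.5, 46.0, 33.3 and 34.4), Slc2a1 (55.5, 64.1, 43.5, 53.4, 72.3 and 41.5) and Hif1a (147.6, 194.0, 144.5, 108.8, 161.6 and 158.9) overlapped.

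In NK cells edgeR called 0.0536% of genes for GA-aFuc against Untreated, 0.0429% against N297A, 0.129% for GITR/Syn GA-aFuc against Untreated, 0% for GITR/Syn GA-aFuc against GA-aFuc, 0.0107% for N297A against Untreated and 0.268% for Fc-enhanced against the others. At an unadjusted p under 0.05 it gave 3, 1, 6, 0, 1 and 9 members higher and 0 lower; of all genes 4.86%, 4.72%, 7.46%, 4.41%, 2.29% and 9.44% had such a p, in either direction. The median UMI count per NK cell was 9032 to 11856 in the Fc-enhanced mice and 6477 and 6666 in the other 2; the part of depth in these differences was not tested.

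In dendritic cells (33 members among 8557 genes) Hilpda was 44.7, 108.8, 40.8, 43.0, 24.5 and 21.8 CPM, with each Fc-enhanced mouse above both others. Its log2 fold change for GA-aFuc against Untreated was 1.79 ± 0.49 (edgeR adjusted p = 0.365, and 1.11e-06 to 0.9999 over 12 alternatives, of which 5 passed), and 1.01 without GA-aFuc 2. Hif1a was 251.2, 244.7, 207.1, 177.5, 169.0 and 168.7, with the same order and 0.53 ± 0.20 (edgeR adjusted p = 0.673).

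Pfkp was 474.9, 358.3, 313.1, 303.3, 198.7 and 360.4, with 0.41 ± 0.15 for Fc-enhanced against the others (edgeR adjusted p = 0.713). That value rested on the N297A mouse, without which it was -0.02. Ddit4 was lower, at 3.44, 12.8, 4.86, 10.8, 20.6 and 19.5, with -1.32 ± 0.51 (edgeR adjusted p = 0.764), and each Fc-enhanced mouse was below both others. Hk2 was 117.0, 112.0, 119.6, 100.0, 82.6 and 99.8, again with the 4 above both others by a small margin, and Slc2a1 (60.2, 78.4, 68.1, 81.7, 63.2 and 79.2), Ldha (703.7, 454.3, 485.2, 561.5, 465.7 and 579.6) and Bnip3 (63.7, 60.8, 32.1, 36.6, 24.5 and 42.5) overlapped. The summed cDC2 markers were 455.9 and 782.2 CPM in the GA-aFuc mice and 232.2 to 247.0 in the others, while cDC2 made up 33 of 47, 38 of 58, 52 of 83, 49 of 72, 49 of 72 and 47 of 66 cells of the class; the part of the markers' level was not tested.

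In dendritic cells edgeR called 0.0117% of genes for GA-aFuc against Untreated, 0.0234% against N297A, 0% for GITR/Syn GA-aFuc against Untreated, 0.14% for GITR/Syn GA-aFuc against GA-aFuc, 0.0234% for N297A against Untreated and 0.0234% for Fc-enhanced against the others. At an unadjusted p under 0.05 it gave 3, 10, 0, 0, 1 and 6 members higher and 0, 0, 1, 4, 5 and 1 lower. Of all genes, 6.97%, 6.97%, 4.72%, 7.16%, 5.22% and 6.14% had such a p, in either direction.

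**Figure D5:**
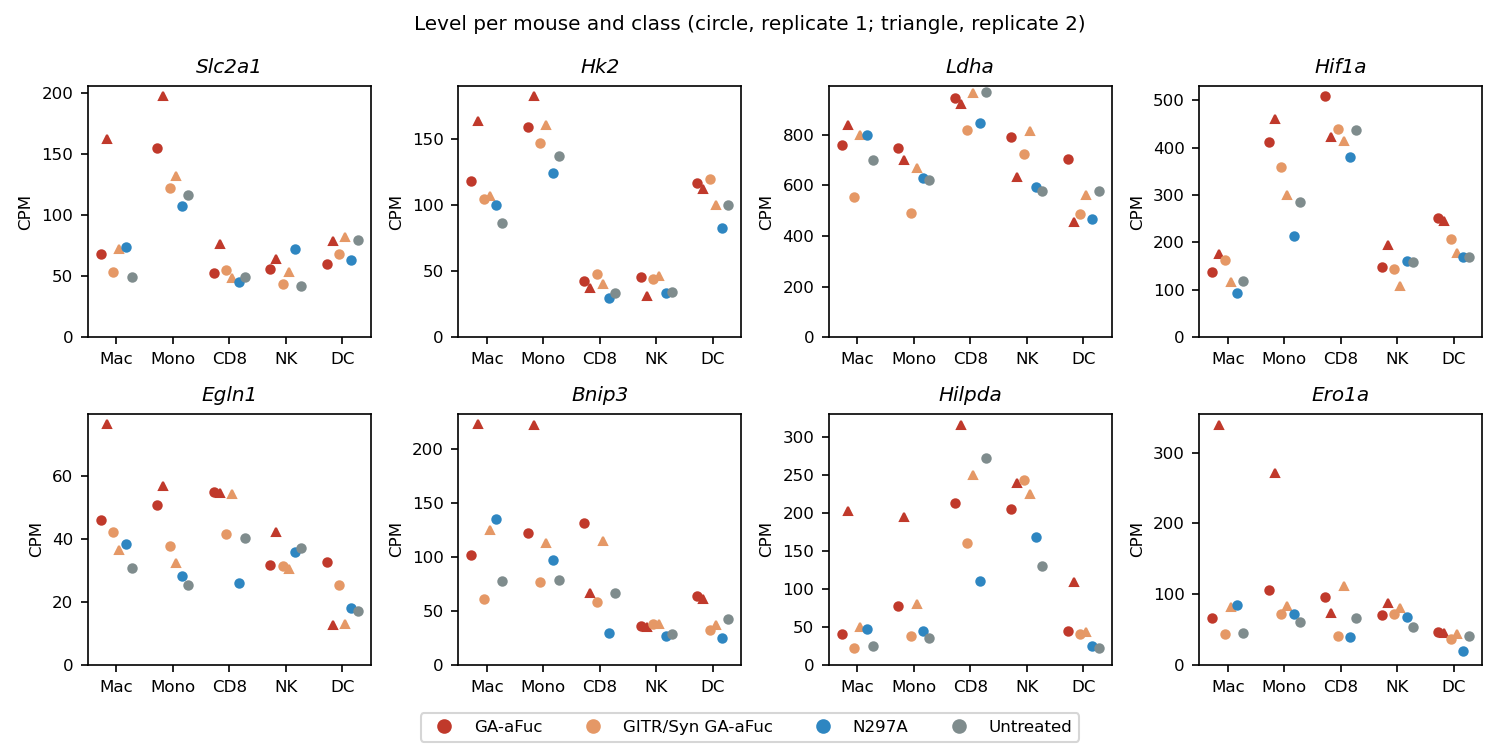
CPM per mouse of 8 members in 5 classes (Mac, macrophages; Mono, monocytes; CD8, CD8 T cells; NK, NK cells; DC, dendritic cells), coloured by treatment; circles are replicate 1 and triangles replicate 2. The GA-aFuc 2 triangle stands apart in macrophages for Slc2a1, Bnip3, Hilpda and Ero1a, and Hif1a in monocytes is highest in the 4 Fc-enhanced mice.

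Members for which all 4 Fc-enhanced mice were above both other mice numbered 5 in macrophages (Hk1, Hk2, Pfkfb3, Mxi1 and Bhlhe40; 11.8% of all genes had this order) and 8 in monocytes (Slc2a1, Slc2a3, Hk2, Pdk1, Egln1, Ndrg1, Hif1a and Mxi1; 11.3%). There were 5 in CD8 T cells (Hk2, Pfkp, Egln1, Egln3 and Ndrg1; 6.15%), 9 in NK cells (Gpi1, Aldoa, Gapdh, Pgk1, Ldha, Slc16a3, Bnip3, Hilpda and Ero1a; 7.62%) and 5 in dendritic cells (Hk2, Pgam1, Slc16a3, Hilpda and Hif1a; 6.82%). Members below both numbered 0 in macrophages (4.98%) and monocytes (8.52%), and 1 each in CD8 T cells (the histone demethylase Kdm3a; 5.88%), NK cells (Pfkfb3; 12.3%) and dendritic cells (Ddit4; 6.84%). The macrophage share, 5 of 37, was near the background. Hk2 had this order in 4 of the 5 classes, which come from the same 6 mice.

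The module score over the 6 mice was 6.26, 6.99, 5.94, 6.32, 6.36 and 5.99 in macrophages and 6.58, 6.94, 6.28, 6.46, 6.26 and 6.23 in monocytes. GA-aFuc 2 was highest in both. In macrophages the N297A mouse stood between the Fc-enhanced mice; in monocytes the N297A and Untreated mice were lowest.

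Neighbouring pathways were read from lists of other genes, of which 0 were called in either contrast of any class for GA-aFuc against Untreated or Fc-enhanced against the others. Other hypoxia response genes had a median log2 fold change of 0.50 in macrophages (21 tested, 3 at an unadjusted p under 0.05) and 0.42 in monocytes (19 tested, 7 at that p) for GA-aFuc against Untreated, beside 3.04% and 6.57% of all genes at that p. Other glycolysis and pyruvate genes, at 0.06 and 0.05, and pentose phosphate genes, at 0.06 and 0.02, stayed near the median of all genes. Tricarboxylic acid cycle genes were at -0.10 and -0.14 and respiratory chain genes (23 of 27 found) at -0.16 and -0.11. In NK cells, for Fc-enhanced against the others, the respiratory chain was at 0.16 (4 of 23 at an unadjusted p under 0.05, beside 9.44% of all genes) and the tricarboxylic acid cycle at 0.25, beside 0.22 for the 34 members.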

How the data were processed

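The members, gene lists and comparisons were chosen with earlier results of these data known. The deposited values are raw UMI counts per feature and droplet made by the authors with Cell Ranger 9.0.0 (per the file headers). The builds were human GRCh38 and mouse GRCm39, per the submitters' processing notes. Human features held 0.591% of UMIs. Cell type, cluster and treatment come from the authors' deposited annotation. Whether the authors removed doublets is not stated by any source used here. No doublet caller was applied to the cells. Mice were taken as runs of rising barcodes in that annotation. In the library analysed, the top hashtag matched the run in 10476 of 10476 cells. Hashtags of the other library were not checked. Replicates are numbered in the order of runs.

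Counts were summed per mouse and class (47 to 1090 cells) and fitted with edgeR 4.0.16 in R 4.3.3 (filterByExpr, TMM, glmQLFit, glmQLFTest, all 6 mice, Benjamini-Hochberg within class and contrast). The fit assumes that the lone N297A and Untreated mice vary as the treatments with 2 mice do. SE is |log2 fold change|/√F. Printed CPM use all mapped UMIs as the denominator; scores use a pseudocount of 1 CPM. Types and clusters are described without tests. Features entered type and cluster pairs at a mean of at least 5 CPM in either group. Scripts were tested on simulated data. Alternatives were DESeq2 1.42.0, other scalings and filters, equal cells per mouse, the compared treatments alone and each mouse left out. Values per mouse are given for up to 4 members per class with the smallest p in GA-aFuc against Untreated or Fc-enhanced against the others, for the members that differ most between types, and for Hif1a, Slc2a1, Hk2, Ldha and Bnip3. Promoter coordinates are of GRCm38.p6 and were not joined to the counts' build.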

Additional observations from a re-analysis of the deposited data

Results flagged for a closer look

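Among the 4 Fc-enhanced mice, 56 groups of values (named members by class, and scores) were examined for 1 mouse far from the other 3, and 5 held one. Chance alone would mark about 1 in 20 independent groups, or 2.8 of 56. That rate does not hold strictly here. The groups share the same 4 mice of 2 treatments, and many genes were named for a small p in contrasts of these mice.

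GA-aFuc 2 was the mouse apart in 4 of the 5. In macrophages its Bhlhe40 level was 90.9 CPM, against 24.6 to 29.1 in the other 3, and its Hilpda level was 202.8, against 21.8 to 49.5. In dendritic cells its Hilpda level was 108.8, against 40.8 to 44.7. In NK cells its Hk2 level was the low one, 31.1 against 44.5 to 46.0. The fifth was Egln1 in CD8 T cells, where GITR/Syn GA-aFuc 1 was low, at 41.4 CPM against 54.1 to 54.9.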

How the results depend on the processing

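edgeR called 0 members in each of the 30 class and contrast combinations as reported; 25 alternative values of single named members passed the threshold where the reported one did not, and the cause was not tested. Counts over all genes of the class, members included, are given in the same order after each count of members. They are numbers of genes, not shares. Without the filter every gene with any count was tested, more than in the reported fits. Without a filter on low counts, macrophages had 9 members called for GA-aFuc against Untreated, 4 against N297A, 9 for GITR/Syn GA-aFuc against GA-aFuc and 4 for Fc-enhanced against the others (all genes 230, 259, 233 and 190), and monocytes had 6, 7, 5 and 5 (220, 361, 167 and 302). That setting gave 2 in CD8 T cells for GA-aFuc against N297A and 1 for Fc-enhanced against the others (53 and 29). It gave 1 in NK cells for each of GITR/Syn GA-aFuc against Untreated and Fc-enhanced against the others (57 and 110). In dendritic cells it gave 1 for GA-aFuc against Untreated, 2 against N297A and 1 for Fc-enhanced against the others (106, 77 and 63). DESeq2 called 2 in monocytes for GA-aFuc against N297A and 1 for Fc-enhanced against the others (78 and 62). With the compared treatments alone, GA-aFuc against N297A gave 3 in monocytes, 2 in CD8 T cells and 2 in dendritic cells (182, 61 and 73), GITR/Syn GA-aFuc against Untreated gave 1 in NK cells (74), and GA-aFuc against Untreated gave 1 in dendritic cells (92). With equal cells per mouse, NK cells had 1 called for Fc-enhanced against the others (16).

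With each mouse left out, the calls in macrophages ran from 0 to 11 for GA-aFuc against Untreated, 0 to 6 against N297A, 0 to 12 for GITR/Syn GA-aFuc against GA-aFuc and 0 to 5 for Fc-enhanced against the others (all genes 0 to 381, 0 to 289, 0 to 386 and 0 to 228). In monocytes the ranges were 0 to 6, 0 to 8, 0 to 5 and 0 to 6 (7 to 270, 44 to 311, 6 to 222 and 0 to 303). In CD8 T cells they were 0 to 1 for GA-aFuc against N297A, GITR/Syn GA-aFuc against Untreated and N297A against Untreated (0 to 46, 0 to 56 and 0 to 16). In NK cells they were 0 to 1 for GITR/Syn GA-aFuc against Untreated and for Fc-enhanced against the others (8 to 45 and 7 to 86). In dendritic cells they were 0 to 1 for GA-aFuc against Untreated, GITR/Syn GA-aFuc against GA-aFuc and Fc-enhanced against the others (4 to 156, 15 to 184 and 1 to 87), and 0 to 2 for GA-aFuc against N297A and N297A against Untreated (2 to 100 and 47 to 74). The highest macrophage and monocyte values came without GA-aFuc 1, which leaves GA-aFuc 2 as the lone mouse of its group.

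Pfkp in dendritic cells changed direction with the N297A mouse left out, ranging over the mice left out from -0.0194 to 0.854 on the log2 scale. The difference in module score between Fc-enhanced and other mice in macrophages, 0.20, ran from -0.00315 to 0.385 with a mouse left out. Leaving out the clusters with the highest scores, or keeping only these, was chosen after seeing the data and gave 0 members called in both classes. Contrasts with N297A or Untreated could not be fitted without that mouse. No paired analysis was possible because replicate numbers here only name mice.

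The main limits are the single N297A and Untreated mice, the 2 residual degrees of freedom, the few cells of some classes (47 to 146 CD8 T, NK or dendritic cells per mouse), and members such as Adm and Ak4 near the limit of counting.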
